A study of Mus musculus with 65 samples.

Results

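The potassium channel genes of mouse, those whose symbol begins with Kcn, were followed through cerebellum, medulla and pons of a mouse model of spinocerebellar ataxia. Members were all Kcn genes with at least 1 CPM (read counts scaled to the size of the library) in 3 or more of the 65 libraries. This left 80 of the 99 Kcn genes in the table of 49670 genes, while 16611 genes in all passed the same level. Of the members, 78 encode proteins and 2, Kcnq1ot1 and Kcnmb4os2, are non-coding antisense transcripts. The first is transcribed against Kcnq1 and the second against Kcnmb4. Just outside the rule were Kcnk15 and Kcnv2, each over 1 CPM in 2 libraries with highest values of 1.15 and 1.08 CPM. Each of the 80 members passed the filter on low counts and was tested in each comparison below.

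Potassium channels let potassium leave or enter the cell along its gradient, which sets the resting potential, ends action potentials and limits repetitive firing. Voltage-gated channels (Kcna to Kcnd, Kcnh, Kcnq) open on depolarization, and the silent subunits (Kcnf, Kcng, Kcns, Kcnv) alter them without forming channels alone. Auxiliary subunits (Kcnab, Kcne, Kcnip, Kcnmb) bind the channels and change their gating or delivery. Inward rectifiers (Kcnj) and leak channels (Kcnk) hold the resting potential, also in glia, where Kcnj10 carries the uptake of extracellular potassium. Calcium-activated channels (Kcnma1, Kcnn) produce afterhyperpolarization, and in cerebellar Purkinje cells several of these families together shape fast, regular spiking.

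RNA came from C57BL/6J mice that were wild type and given vehicle, Atxn1[82Q] knockin and given vehicle, or Atxn1[82Q] knockin and given an antisense oligonucleotide (ASO) against Atxn1. At 18 weeks of age, each of these groups had 4 libraries of cerebellum, 3 of medulla and 3 of pons. At 28 weeks, pons had 4 libraries in each group, and medulla had 8 of wild type, 8 of vehicle-treated knockin and 7 of ASO-treated knockin in 2 labelled batches. No group of wild type mice given the ASO is among them, so all ASO values come from knockin mice. The labels call these separate samples but do not name the animals, so p-values measure the spread between these samples.

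Levels are CPM scaled with TMM factors over all 65 libraries, whose total counts ran from 49.2 to 119.1 M. Atxn1 itself, the targeted gene, lay between 30.5 and 39.3 CPM in wild type medulla at 28 weeks, between 40.5 and 48.3 CPM in vehicle-treated knockin, and between 25 and 34.0 CPM in 6 of the 7 ASO-treated libraries. In cerebellum the ranges were 46.0 to 57.0, 57.5 to 64.6 and 19.8 to 50.3 CPM in the same order. The 28-week libraries labelled ASO replicate 2 held 49.4 CPM of Atxn1 in medulla and 51.0 CPM in pons, as high as vehicle-treated knockin. At 18 weeks the libraries labelled ASO replicate 2 were likewise high (39.0 CPM in medulla, 51.0 CPM in pons), and those labelled wild type replicate 3 were low (15.3 and 16.5 CPM). In medulla at 28 weeks, 4 libraries (wild type replicate 5, knockin replicate 8, ASO replicates 6 and 7) were low in hindbrain Hox genes, which mark the caudal position of the tissue. The summed level of 12 Purkinje cell markers was 10634 to 11665 CPM in wild type cerebellum and 582 to 591 CPM in wild type medulla at 18 weeks. It reached 1305 CPM in wild type pons at 18 weeks and 1319 CPM in ASO-treated medulla at 28 weeks. The sum of 12 granule cell markers was 4947 to 5370 CPM in wild type cerebellum and reached 849 and 908 CPM in those same brainstem groups. In vehicle-treated knockin the Purkinje sum reached 1248 CPM in pons at 18 weeks and 1166 CPM in medulla at 28 weeks. The granule sum reached 655 and 769 CPM there. The libraries above were kept, and counts that move without them are given beside the results. No fit was made to leave out those high in cerebellar markers as a set.

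Between knockin and wild type, 4 members passed the test in the same direction in cerebellum at 18 weeks and in medulla and pons at 28 weeks: Kcna6, Kcnab1, Kcng4 and Kcnip4. The matching count over all genes was not made, so nothing here sets apart these 4 members. Their RefSeq promoters (GRCm38.p6) are shown because these members moved together in 3 regions, and those of Kcnj10 and Kcns3 because Atxn1 protein binds the repressor Capicua, which recognises the octamers TGAATGAA and TGAATGGA, one of which they hold. RefSeq held a promoter for 58 of the 80 members, and the first listed start of each gene was used (the first of 3 for Kcnab1, and of 2 for Kcnip4 and Kcns3). The Kcnab1 window lies outside the counted gene (chr3:65109384-65378223). The Kcnip4 window lies inside its gene (chr5:48389502-49524907), as does most of the Kcns3 window (chr12:11090202-11151056). Which start is used in these tissues was not tested. Given are the 250 bases before the start of the 4 shared members and of the 2 members with an octamer, 5′ to 3′ on the gene's strand. Capitals mark a Capicua octamer or a GC box (GGGCGG) on either strand.
Kcna6, chr6:126740675-126740924, minus strand: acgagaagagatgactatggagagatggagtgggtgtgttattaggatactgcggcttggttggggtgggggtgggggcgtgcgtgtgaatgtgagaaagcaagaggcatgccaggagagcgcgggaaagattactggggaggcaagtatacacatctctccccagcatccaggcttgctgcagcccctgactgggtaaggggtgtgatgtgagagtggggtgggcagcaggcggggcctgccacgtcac
Kcnab1, chr3:64948962-64949211, plus strand: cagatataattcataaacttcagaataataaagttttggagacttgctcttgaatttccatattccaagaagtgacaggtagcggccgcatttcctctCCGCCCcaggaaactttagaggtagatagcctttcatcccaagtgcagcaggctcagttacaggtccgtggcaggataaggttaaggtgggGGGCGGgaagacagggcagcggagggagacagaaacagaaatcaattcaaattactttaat
Kcng4, chr8:119635681-119635930, minus strand: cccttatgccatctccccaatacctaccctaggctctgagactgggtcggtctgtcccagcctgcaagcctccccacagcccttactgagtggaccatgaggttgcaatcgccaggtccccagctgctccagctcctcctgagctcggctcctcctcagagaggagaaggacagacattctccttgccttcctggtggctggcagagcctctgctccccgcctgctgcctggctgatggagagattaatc
Kcnip4, chr5:49285660-49285909, minus strand: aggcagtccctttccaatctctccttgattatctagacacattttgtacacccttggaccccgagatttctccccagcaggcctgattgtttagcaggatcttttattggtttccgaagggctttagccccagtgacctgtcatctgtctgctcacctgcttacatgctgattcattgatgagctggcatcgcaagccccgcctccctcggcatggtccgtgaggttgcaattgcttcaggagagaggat
Kcnj10, chr1:172340960-172341209, plus strand: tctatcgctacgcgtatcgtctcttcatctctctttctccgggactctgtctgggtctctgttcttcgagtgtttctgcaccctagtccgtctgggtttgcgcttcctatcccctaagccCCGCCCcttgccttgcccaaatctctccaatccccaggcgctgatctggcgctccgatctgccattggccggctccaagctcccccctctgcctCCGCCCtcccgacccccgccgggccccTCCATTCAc
Kcns3, chr12:11150843-11151092, minus strand: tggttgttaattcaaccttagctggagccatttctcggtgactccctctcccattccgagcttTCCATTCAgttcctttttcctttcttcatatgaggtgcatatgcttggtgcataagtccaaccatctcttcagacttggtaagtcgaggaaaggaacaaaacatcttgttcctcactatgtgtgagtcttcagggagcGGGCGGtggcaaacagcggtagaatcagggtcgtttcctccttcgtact

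The octamer TGAATGGA, read on the opposite strand, lay 9 bases before the start of Kcnj10 and 187 bases before that of Kcns3, counted to the octamer's first base as printed. In the 58 member promoters, 2 (3.45%) held either octamer, beside 2.08% of 27025 promoters of all genes. None of the promoters of Kcna6, Kcnab1, Kcng4 and Kcnip4 held one, which says only that these letters are not in this window. A GC box was in 31 of the 58 member promoters (53.4%) and in 32.9% of all promoters. TATAAA was in 2 member promoters (3.45%), those of Kcnj9 and Kcnj13, and in 13.0% of all, while TGACGTCA was in 0 and 1.62%. The median GC content of these windows was 60.2% for members and 52.0% for all genes. The motifs did not overlap each other in the printed sequences.

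The resting inventory differed strongly between regions. In wild type cerebellum the members together made up 5964 ± 205 CPM (SD, n = 4), and 66 of them had a mean of at least 1 CPM. Per kilobase of exon, high levels were held by Kcnk1, a leak channel, at 85.6 ± 1.5 CPM/kb and by Kcnc1, whose channel closes fast and allows high firing rates, at 66.4 ± 3.76. Kcng4, a silent subunit, reached 60.1 ± 3.13 CPM/kb. Kcnj10 (54.0 ± 2.11 CPM/kb) and the sodium-activated channel Kcnt1 (53.9 ± 2.11) followed, and these means differed by less than their SDs. Kcna2, an axonal voltage-gated channel, came next at 45.5 ± 2.59 CPM/kb.

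In medulla and pons the glial inward rectifier Kcnj10 was the highest member. It held 147 ± 34.9 CPM/kb in medulla and 115 ± 49.1 CPM/kb in pons at 18 weeks (n = 3 each), and 134 ± 13.9 (n = 8) and 99.9 ± 10.3 CPM/kb (n = 4) at 28 weeks. Kcnab2, a beta subunit of Kcna channels, came next with 97.4 ± 6.72 CPM/kb in medulla and 81.6 ± 2.98 CPM/kb in pons at 28 weeks. Kcnk1 held 49.1 ± 2.33 CPM/kb in medulla and 40.9 ± 3.36 CPM/kb in pons at that age. At 18 weeks the SDs of the leading members in pons overlapped, so their order was not fixed there.

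The comparison of wild type medulla with cerebellum at 18 weeks called 64 of the 80 members (80%), 39 higher and 25 lower in medulla. Of all 20176 genes tested, 59.2% were called (30.0% higher, 29.3% lower), so most genes differ between these tissues. Only 16611 genes reached the members' level of 1 CPM, so here and below the genes tested include genes of lower level. The shares of members and of all genes are therefore not matched in level. Pons against cerebellum called 65 members (81.2%; 42 higher, 23 lower), beside 56.1% of all genes. Without the libraries labelled wild type replicate 3, whose Atxn1 goes against the label, 63 and 64 members were called. The labels do not name the mice, but the deposited column names end in a number that tissues share. At 18 weeks all 9 columns of medulla share theirs with pons, and 6 of the 12 of cerebellum share theirs with both, 1 of them wild type. Tissues may therefore share mice. With a block on that number, chosen after seeing the data, 45 members were called for medulla and 46 for pons, and Kcnh3, Kcnk12 and Kcng4 were no longer called in either.

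Of the members higher in medulla, Kcng1 and Kcnj14 differed by the largest folds. Kcng1, a silent subunit, lay between 0.134 and 0.335 CPM in the 4 cerebellar libraries, between 9.51 and 20.3 CPM in the 3 of medulla, and between 3.60 and 7.47 CPM in the 3 of pons. The groups did not overlap, and Kcng1 was higher in medulla by 5.92 ± 0.39 on the log2 scale (SE, adjusted p = 2.7e-07). Kcnj14, an inward rectifier known from motor neurons, was at 0.298 ± 0.126 CPM in cerebellum and 14 ± 2.46 CPM in medulla, a log2 difference of 5.58 ± 0.61. In pons Kcnj14 ranged from 3.82 to 20.8 CPM, with wild type replicate 2 far above the other libraries. Kcnv1 (log2 difference 5.08), Kcnh5 (4.85), Kcnh8 (4.68), Kcnc2 (4.02), Kcnq5 (3.53) and Kcna5 (3.27) were the next in medulla. Of these, Kcnc2, a fast channel of interneurons, was the most abundant, with 5.48 ± 1.1 CPM in cerebellum against 87.0 ± 16.2 CPM in medulla.

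Of the members higher in cerebellum than in medulla, Kcnmb4os2 and Kcnmb4 differed by the largest folds. Kcnmb4 encodes the neuronal beta subunit of the large-conductance calcium-activated channel. It lay between 57.2 and 63.2 CPM in cerebellum, between 5.42 and 7.86 CPM in medulla and between 6.20 and 10.3 CPM in pons. Kcnmb4 was lower in medulla by 3.17 ± 0.18 (log2, adjusted p = 2.8e-08) and its antisense transcript Kcnmb4os2 by 3.46 ± 0.36. Because it is not stated whether strand was used in counting, reads from the stretch where these genes overlap cannot be told apart. Kcnj12 (log2 difference -2.38), Kcnj9 (-1.84), Kcnk12 (-1.74), Kcnt1 (-1.72), Kcnk3 (-1.55) and Kcnd2 (-1.40) followed. Kcnh3, a member near the lower limit, was at -1.90. Kcnd2 carries the A-type current of granule cells and stood at 229 ± 31.8 CPM in cerebellum and 85.1 ± 9.46 CPM in medulla.

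**Figure D1:**
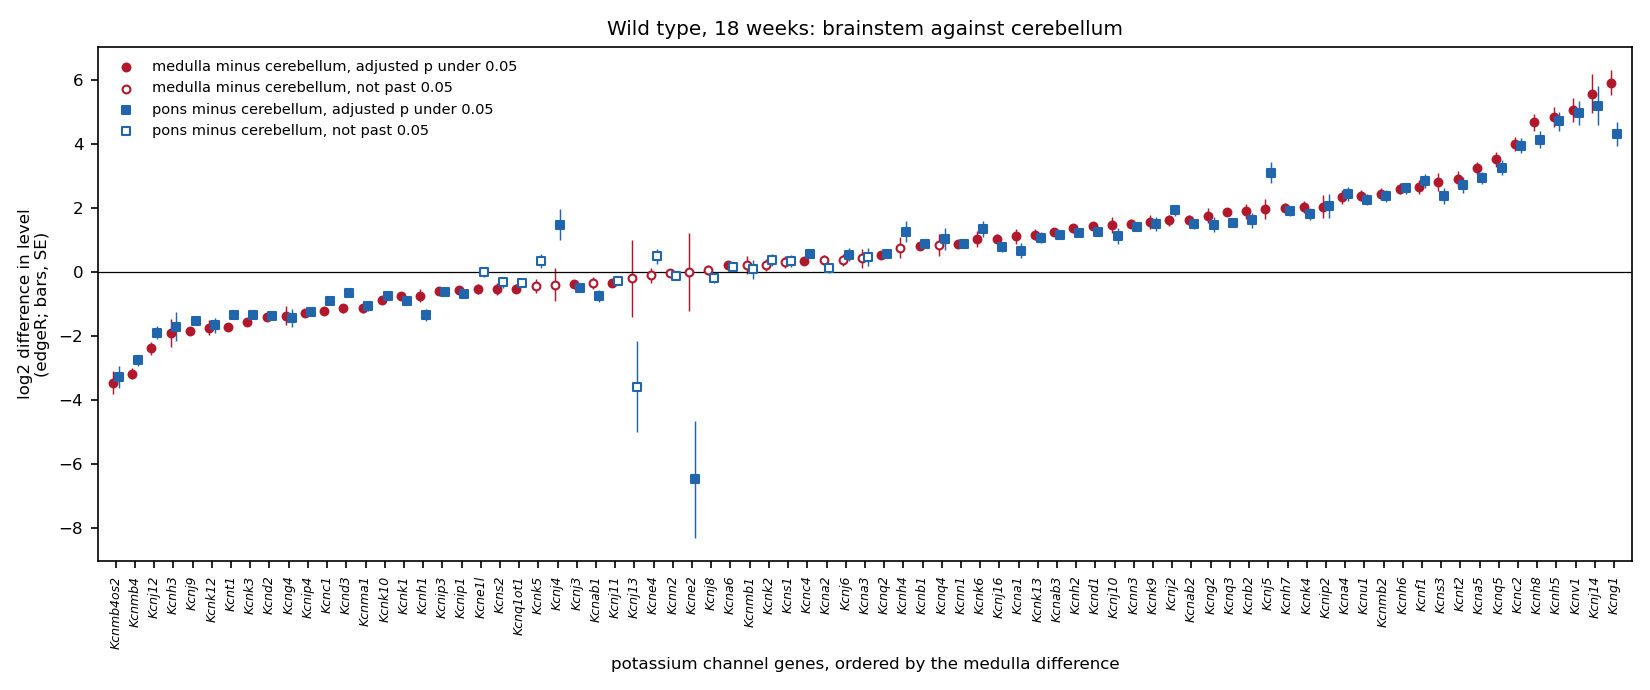
Difference in level (log2, y axis) of members between brainstem regions and cerebellum in wild type mice at 18 weeks, with SE. Points above 0 are higher in medulla (circles) or pons (squares); filled points passed an adjusted p of 0.05. The differences in medulla run from -3.46 (Kcnmb4os2) to 5.92 (Kcng1).

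Pons and medulla were compared with each other at 28 weeks, where 33 members were called (41.2%, against 19.2% of all genes, 10.3% higher and 8.9% lower in pons), 15 higher and 18 lower in pons. Kcng1 was lower in pons by 2.39 ± 0.52 on the log2 scale, with 4.53 ± 0.865 CPM (n = 4) in pons and 23.8 ± 11 CPM (n = 8) in medulla. Kcnj14 was lower in pons by 0.98 ± 0.19 and Kcnj10 by 0.42 ± 0.09. Kcnj4, an inward rectifier, was higher in pons by 1.8 ± 0.32, and Kcnj5, a subunit of G-protein-gated channels, by 1.06 ± 0.26. The count fell to 18 without pons wild type replicate 3 and to 19 without replicate 1.

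Some libraries stood apart in single members. Pons ASO replicate 3 at 18 weeks held 25.8 CPM of Kcnh3, where the other 8 pons libraries of that age held at most 0.804 CPM. The same library held 60.1 CPM of Kcnf1, 40.1 CPM of Kcnip2, 32.4 CPM of Kcng1, 25 CPM of Kcnj4 and 17.7 CPM of Kcnv1, each above all other pons libraries of that age. Pons wild type replicate 2 at 18 weeks held 919 CPM of Kcnj10 and 134 CPM of Kcng4, against at most 549 and 57.3 CPM in the other wild type libraries. Cerebellum ASO replicate 3 held 9.59 CPM of Kcna1, 13.0 CPM of Kcnma1 and 0.613 CPM of Kcnk9. The other 3 ASO libraries of cerebellum held 82.8 to 97.5, 46.4 to 72.9 and 10.8 to 18.5 CPM of these genes.

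Kcnj13, an inward rectifier of transporting epithelia, and Kcne2, a small auxiliary subunit, varied widely between libraries of 1 group. In vehicle-treated knockin medulla at 28 weeks, replicate 2 held 98.0 CPM of Kcnj13 and 114 CPM of Kcne2, while the next highest libraries held 16.6 and 19.4 CPM. Both genes are known from the choroid plexus, and the same library held 23541 CPM of Ttr, the main choroid plexus transcript. Over the 65 libraries, Pearson's r with Ttr was 0.89 for Kcnj13 and 0.98 for Kcne2 (Spearman's rho 0.88 and 0.98), given as a description, since libraries share tissues and groups. The summed level of 9 choroid plexus markers ranged from 142 to 24846 CPM in that group and from 46.3 to 4642 CPM in wild type medulla. Neither gene was called between knockin and wild type in cerebellum, medulla at 28 weeks or pons at 28 weeks.

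**Figure D2:**
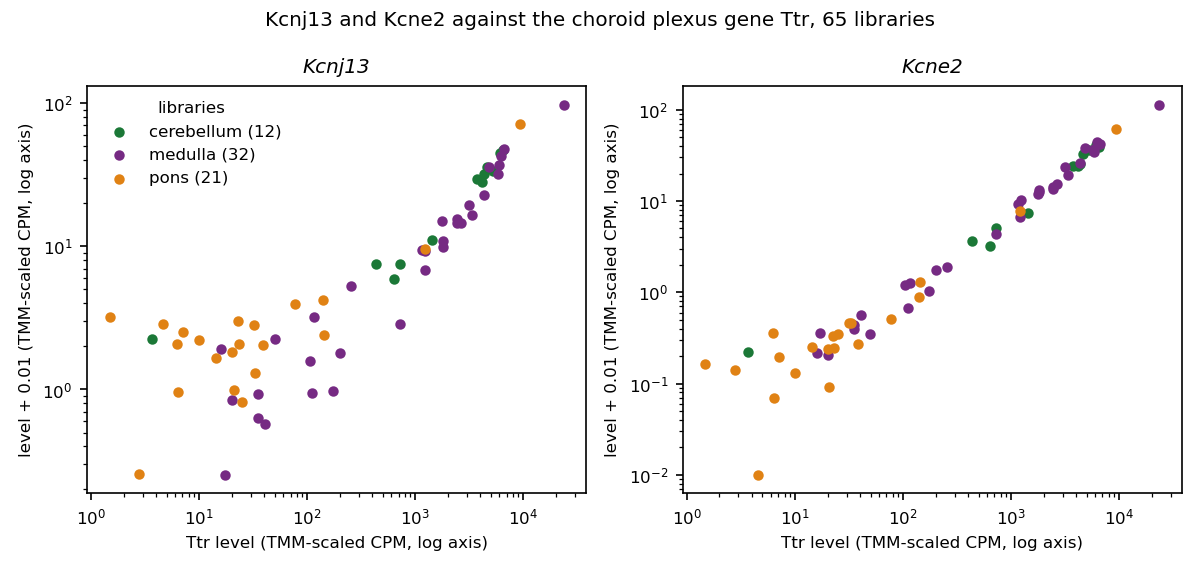
Level of Kcnj13 and Kcne2 (y axis) against the choroid plexus gene Ttr (x axis) in each of the 65 libraries, both in CPM on log axes (0.01 CPM added on the y axis), coloured by tissue. Libraries with much Ttr are those with much Kcnj13 and Kcne2, in all 3 tissues.

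In cerebellum at 18 weeks, knockin against wild type asks which members differ in the tissue that holds the Purkinje cells. There 10 members were called (12.5%), 9 lower and 1 higher, beside 2.71% of all genes tested with 2.06% called lower and 0.654% higher. The lower members included the channel genes Kcna6 and Kcnh3, the silent subunit Kcng4, the auxiliary subunits Kcnab1, Kcnip1 and Kcnip4, and the inward rectifiers Kcnj9 and Kcnj11. Kcnb2 was the only one higher. The median log2 difference of the members was -0.10, and that of all genes tested was 0.01.

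Kcna6, which encodes a delayed rectifier subunit, lay at 119, 129, 129 and 129 CPM in wild type and at 90.5, 84.4, 88.8 and 91.0 CPM in knockin. All knockin libraries were below all wild type libraries, a log2 difference of -0.51 ± 0.06 (SE, adjusted p = 0.0017). The silent subunit Kcng4 lay at 213, 239, 237 and 226 CPM in wild type and at 132, 120, 158 and 127 CPM in knockin, also without overlap. It fell by 0.77 ± 0.12 (adjusted p = 0.0066). Kcnip4, a calcium sensor that binds Kcnd channels, lay at 151, 158, 142 and 144 CPM in wild type and at 94.5, 91.2, 101 and 88.1 CPM in knockin, and fell by 0.66 ± 0.11 (adjusted p = 0.0084). Its relative Kcnip1 lay between 71.0 and 78.5 CPM in wild type and between 45.2 and 50.7 CPM in knockin, and fell by 0.62 ± 0.11. Of the 80 members, 23 had all knockin libraries below all wild type libraries, as did 12.8% of all genes over the 1 CPM level. The reverse held for 10 members and 10% of those genes. With 4 libraries in each group, lack of overlap alone therefore does not set a member apart.

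The fast channel Kcnc1 lay between 598 and 678 CPM in wild type and between 443 and 519 CPM in knockin, without overlap, but its log2 difference of -0.39 ± 0.12 did not pass the adjustment (adjusted p = 0.13). Kcnh3 showed the largest fold among the called members, but at low levels, 1.43 to 2.09 CPM in wild type and 0.273 to 0.502 CPM in knockin (log2 difference -2.25 ± 0.48, adjusted p = 0.025). Kcnj9, a G-protein-gated subunit, fell by 0.39 ± 0.07, Kcnj11, the pore of ATP-sensitive channels, by 0.32 ± 0.07, and Kcnab1, a beta subunit, by 0.30 ± 0.07.

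Kcnb2, a delayed rectifier, moved the other way. It lay at 5.82, 5.53, 10.2 and 6.20 CPM in wild type and at 20.4, 19.7, 13.2 and 14.7 CPM in knockin, a log2 difference of 1.30 ± 0.30 (adjusted p = 0.039). Kcnc2 was highest in knockin replicate 4 (27.7 CPM) and ASO replicate 2 (22.1 CPM), beside 4.06 to 6.51 CPM in wild type. Its log2 difference of 1.33 ± 0.44 did not pass (adjusted p = 0.16). Kcnd2, the partner of the Kcnip proteins, had a log2 difference of -0.11 ± 0.12 (adjusted p = 0.81), and Kcnma1, the large-conductance channel, of -0.54 ± 0.37 (adjusted p = 0.60).

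In the same comparison 6 of 12 Purkinje cell markers, 3 of 12 granule cell markers and 3 of 14 markers of astrocytes and Bergmann glia were lower. None of the 10 general neuronal markers was called. The summed Purkinje markers ranged from 10634 to 11665 CPM in wild type and from 6245 to 7624 CPM in knockin, with no gene of the list at 0 in every library. The part of these markers in the differences above was not tested. In these bulk samples, fewer cells of a type and less RNA per cell cannot be told apart. The count of called members was sensitive to the libraries used: it was 27 without ASO replicate 3, the library low in Kcna1 and Kcnma1, and between 4 and 6 without any 1 of the wild type or vehicle-treated knockin libraries. DESeq2 called 18. Kcna6, Kcng4, Kcnip4 and Kcnip1 passed the threshold in every setting tried.

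**Figure D3:**
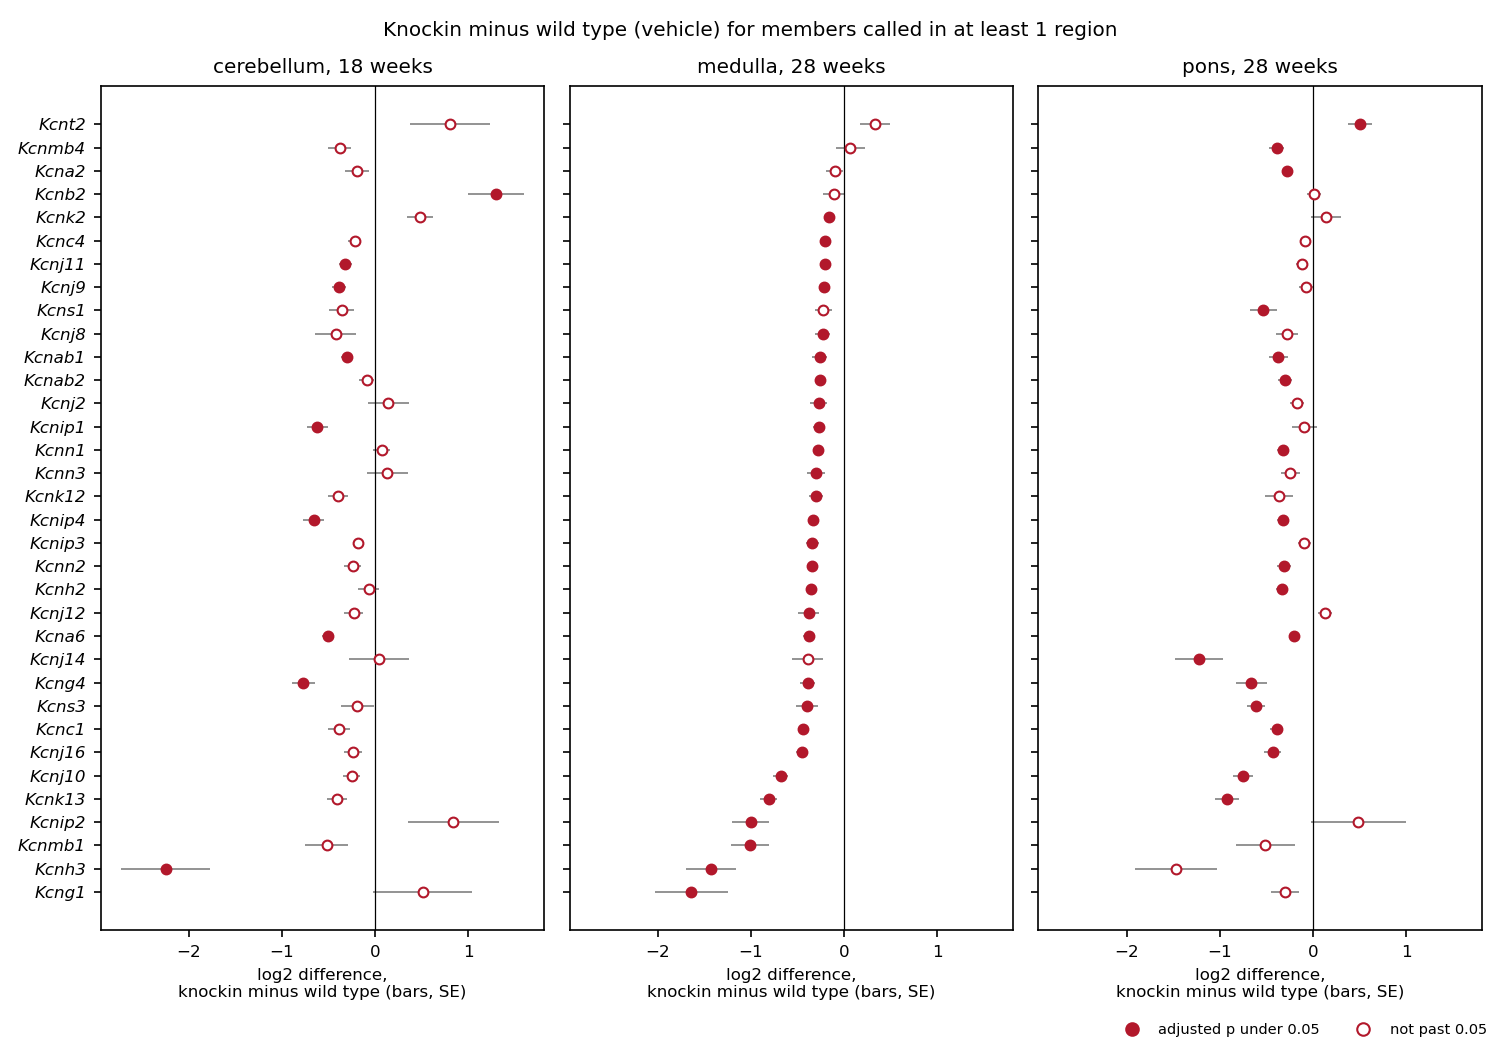
Log2 difference between vehicle-treated knockin and wild type (x axis, bars are SE) of members called in at least 1 of cerebellum at 18 weeks, medulla at 28 weeks and pons at 28 weeks. Filled points passed an adjusted p of 0.05, and all filled points but those of Kcnb2 in cerebellum and Kcnt2 in pons lie below 0.

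In medulla at 28 weeks 28 members were lower in knockin and 0 higher (35.0% called), beside 19.3% of all genes tested and 9.99% called lower. All 4 Kcnip genes and all 3 Kcnn genes were lower, as were 7 of 13 inward rectifiers, 3 of 10 leak channels, 3 of 8 silent subunits, 2 of 8 Kcnh genes, Kcnc1 and Kcnc4, 2 of 3 Kcnab genes, and Kcna6 and Kcnmb1. None of the 4 Kcnq, 3 Kcnd, 2 Kcnb or 3 Kcne genes was called. The median log2 difference was -0.16 for members and 0.01 for all genes tested. Values below are the lowest, median and highest library of each group.

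The inward rectifier Kcnj10 stood at 586, 736 and 832 CPM in wild type and at 346, 473 and 510 CPM in knockin. The 8 knockin libraries were all below the 8 wild type libraries, a log2 difference of -0.68 ± 0.08 (SE, adjusted p = 2.7e-06). It was -0.81 within batch 1 and -0.55 within batch 2. Kcnj16, its partner in glial heteromers, stood at 56.2, 61.8 and 72.0 CPM in wild type and at 35.1, 46.7 and 51.7 CPM in knockin, and fell by 0.45 ± 0.07 (adjusted p = 5.4e-05; -0.50 and -0.42 within the batches). Kcnk13, a leak channel known from microglia, stood at 21.9, 24.5 and 33.0 CPM in wild type and at 11.8, 13.9 and 17.8 CPM in knockin, and fell by 0.81 ± 0.10 (adjusted p = 3.8e-06; -0.74 and -0.88 within the batches). In these members the 2 groups did not overlap. All knockin libraries lay below all wild type libraries in 9 of the 80 members and in 2.51% of all genes over the 1 CPM level.

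Among neuronal channels, Kcnc1 stood at 243, 315 and 342 CPM in wild type and at 209, 219 and 257 CPM in knockin, overlapping in the lowest wild type library, and fell by 0.44 ± 0.05 (adjusted p = 5.9e-06). Kcnn2, a small-conductance calcium-activated channel, stood at 33.1, 38.0 and 39.6 CPM in wild type and at 26.9, 29.5 and 32.4 CPM in knockin, with no overlap, and fell by 0.34 ± 0.04 (adjusted p = 8.3e-06). Kcnn1 fell by 0.28 ± 0.05 and Kcnn3 by 0.30 ± 0.10. Kcna6 stood at 143, 150 and 168 CPM in wild type and at 91.3, 117 and 138 CPM in knockin, and fell by 0.38 ± 0.06 (adjusted p = 3.9e-05). Kcnh2, the channel that is also central to cardiac repolarization, fell by 0.35 ± 0.06.

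The calcium sensors of the Kcnip family were called lower, and the Kcnd channels they bind were not called. A difference between these families was not tested. Kcnip4 stood at 62.2, 63.9 and 75.8 CPM in wild type and at 40.7, 55.2 and 57.3 CPM in knockin, and fell by 0.33 ± 0.06. Kcnip3 fell by 0.34 ± 0.07, Kcnip1 by 0.27 ± 0.07 and Kcnip2 by 1.00 ± 0.20. Kcnd1, Kcnd2 and Kcnd3 had log2 differences of -0.09 ± 0.07, -0.08 ± 0.04 and -0.19 ± 0.10 (adjusted p = 0.44, 0.19 and 0.18). Kcnip1 did not pass in batch 2 alone (log2 difference -0.20, adjusted p = 0.16).

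The largest folds were in members of low level. Kcng1 stood at 4.64, 23.2 and 43.0 CPM in wild type and at 3.29, 8.22 and 13.3 CPM in knockin, and fell by 1.64 ± 0.39 (adjusted p = 0.0053). The lowest value of each of these groups came from a library low in Hox genes. Without those libraries the difference was -1.66 (adjusted p = 0.0011). Kcnh3 stood at 0.508, 1.28 and 1.65 CPM in wild type and at 0.162, 0.448 and 0.938 CPM in knockin, and fell by 1.43 ± 0.27 (adjusted p = 0.00067). Kcnmb1, a beta subunit typical of smooth muscle, stood at 0.890, 1.86 and 2.15 CPM in wild type and at 0.506, 0.852 and 1.08 CPM in knockin, and fell by 1.01 ± 0.20 (adjusted p = 0.0011).

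In both batches each of the 28 members lay below 0, with 12 of them called in batch 1 alone and 20 in batch 2 alone. Leaving out single libraries gave 25 to 31 called members. Markers of several cell types fell in the same comparison: 9 of 14 of astrocytes, 8 of 10 of oligodendrocytes, 5 of 6 of oligodendrocyte precursors, 9 of 10 of noradrenergic and serotonergic neurons and 4 of 10 of neurons in general. None of the 10 microglial markers was called. The summed astrocyte markers ranged from 6033 to 7963 CPM in wild type and from 4195 to 5328 CPM in knockin, and the summed oligodendrocyte markers from 18617 to 24504 and from 13306 to 19092 CPM. Their part in the differences was not tested.

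In pons at 28 weeks 18 members were called (22.5%), 17 lower and 1 higher, beside 9.79% of all genes tested with 5.65% called lower and 4.14% higher. Kcnk13 lay at 20.8, 20.4, 20 and 23.0 CPM in wild type and at 9.28, 8.97, 11.9 and 14.4 CPM in knockin, and fell by 0.92 ± 0.13 (adjusted p = 0.0015). Kcnj10 lay at 502, 618, 498 and 543 CPM in wild type and at 333, 313, 310 and 326 CPM in knockin, and fell by 0.75 ± 0.11 (adjusted p = 0.0026). The silent subunit Kcns3 lay at 13.1, 12.9, 14.4 and 13.0 CPM in wild type and at 8.87, 7.70, 8.15 and 10.1 CPM in knockin, and fell by 0.61 ± 0.10 (adjusted p = 0.0019). The groups did not overlap in any of the 3. All knockin libraries lay below all wild type libraries in 20 of the 80 members and in 9.72% of all genes over the 1 CPM level.

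Kcnj14 lay at 6.94, 6.43, 7.73 and 7.28 CPM in wild type and at 3.57, 1.78, 2.54 and 4.31 CPM in knockin, and fell by 1.22 ± 0.26 (adjusted p = 0.014). Of 8 markers of cholinergic motor neurons tested in this comparison, 7 were lower, with summed levels of 97.0 to 142 CPM in wild type and 43.6 to 63.6 CPM in knockin. Their part in the lower Kcnj14 was not tested. Kcna2, the partner of Kcna6 in axonal channels, lay between 443 and 483 CPM in wild type and between 367 and 397 CPM in knockin, and fell by 0.28 ± 0.05 (adjusted p = 0.0061). Kcnt2, a sodium-activated channel, was the 1 member higher: it lay between 6.35 and 8.66 CPM in wild type and between 7.69 and 11.9 CPM in knockin, with overlap (log2 difference 0.51 ± 0.13, adjusted p = 0.027).

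Of the astrocyte markers 7 of 14 were lower in pons, of the oligodendrocyte markers 6 of 10, and of the microglial markers 0 of 10. Of the markers of noradrenergic and serotonergic neurons 8 of 10 were lower, with summed levels of 701 to 1123 CPM in wild type and 333 to 513 CPM in knockin. Of the general neuronal markers 4 of 10 were lower, with sums of 9168 to 9424 CPM and 7650 to 8586 CPM. Their part in the differences was not tested. The count of called members was 27 without knockin replicate 4, and it was 11, 11 and 10 without knockin replicates 1, 2 and 3 and 11 without wild type replicate 4. The test of the difference between pons and medulla in the knockin effect called 0 of 80 members with edgeR, beside 0.0184% of all genes. At an unadjusted p under 0.05 there were 7 members, and DESeq2 called 0. The members of smallest p there, Kcnj12 and Kcnip2, had differences of 0.51 ± 0.16 and 1.48 ± 0.47 (adjusted p = 0.38 for both).

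Set side by side, cerebellum and medulla shared 8 members lower in knockin (80% of the 10 of cerebellum, 28.6% of the 28 of medulla), and medulla and pons shared 13 (46.4% of medulla, 72.2% of the 18 of pons). Of all genes called, cerebellum and medulla shared 188 in direction (34.1% of cerebellum, 4.77% of medulla). Medulla and pons shared 1248 (31.6% of medulla, 62.3% of pons). Among genes called lower alone, these overlaps were 148 (35.3% and 7.24%) and 745 (36.4% and 64.5%). Cerebellum and pons shared 4 members (40% of cerebellum, 22.2% of pons) and, of all genes called, 129 (23.4% and 6.44%). All 12 columns of pons at 28 weeks end in the number of a medulla column of the same group, so these libraries may come from the same mice and the overlap of medulla and pons is not independent. In all, 35 members (43.8%) were called in at least 1 region, beside 23.2% of all genes. Kcna6 fell by 0.51 in cerebellum, 0.38 in medulla and 0.20 in pons. Kcng4 fell by 0.77, 0.39 and 0.66 in the same order, Kcnip4 by 0.66, 0.33 and 0.32, and Kcnab1 by 0.30, 0.26 and 0.37. In pons Kcna6 lay at 143, 132, 150 and 148 CPM in wild type and at 124, 128, 127 and 118 CPM in knockin, so the smallest of these differences still left the groups apart. Kcnab1 in medulla was carried by batch 1 (-0.45, against -0.08 in batch 2). Leaving out single libraries ended the call of Kcna6 in 5, of Kcng4 in 6 and of Kcnab1 in 8 cases in pons.

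**Figure D4:**
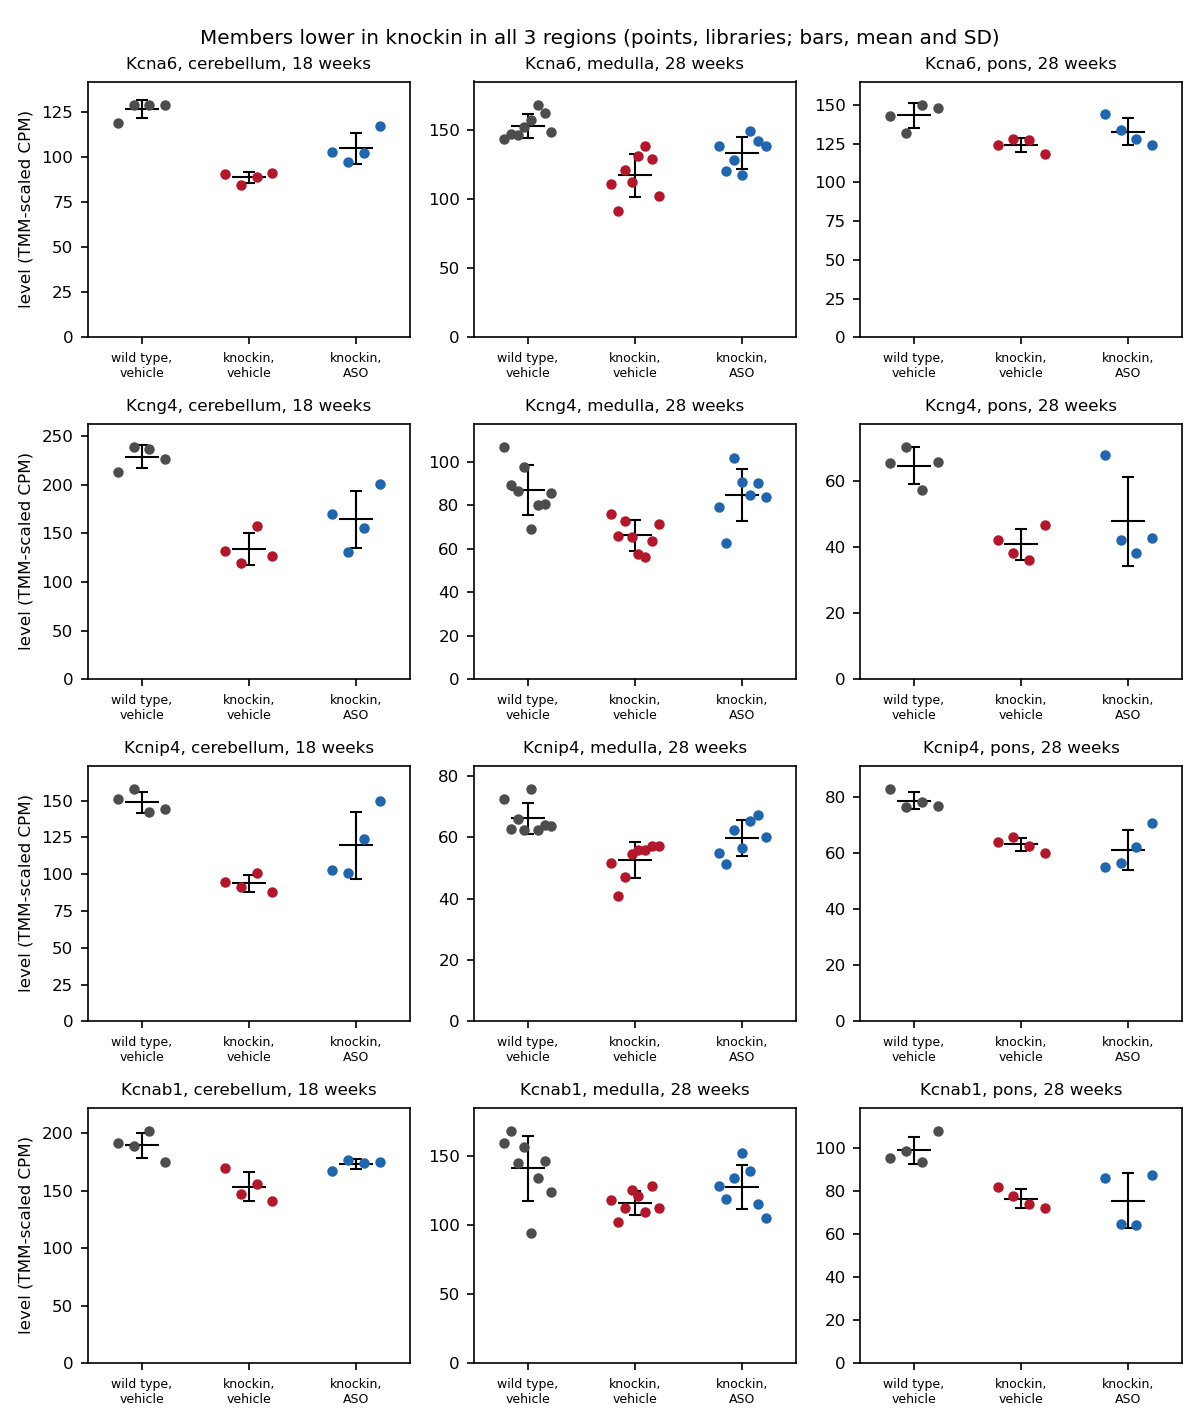
Level (CPM, y axis from 0) of Kcna6, Kcng4, Kcnip4 and Kcnab1 in each library of the 3 groups, in cerebellum at 18 weeks and in medulla and pons at 28 weeks. Points are libraries and bars the mean with SD; in Kcna6 no knockin library reaches the lowest wild type library in any of the 3 regions.

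The knockin effect was tested for a difference between cerebellum at 18 weeks and medulla at 28 weeks. There 9 members were called (11.2%, against 2.93% of all genes). Of these, 8 had the higher value in cerebellum: Kcnk2 (0.64 ± 0.12), Kcnb2 (1.41 ± 0.29), Kcnu1 (0.72), Kcnmb2 (0.95), Kcnc2 (1.46), Kcnn1 (0.35), Kcnip2 (1.83) and Kcnv1 (2.48). Cerebellar knockin replicate 4 held 7.59 CPM of Kcnip2, 0.926 CPM of Kcnv1 and 27.7 CPM of Kcnc2, the highest cerebellar values of these genes, which are brainstem-rich in wild type. Without it 3 members were called. Region and age differ together in this test and cannot be told apart.

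At 18 weeks, medulla and pons gave 0 called members for knockin against wild type and for ASO against vehicle, and 0.0% of all genes were called with edgeR. At an unadjusted p under 0.05 there were 8 members for knockin against wild type in medulla, 12 in pons, 3 for ASO against vehicle in medulla and 22 in pons. DESeq2 called 0, 1, 0 and 0. The share of all genes at an unadjusted p under 0.05 is not given, here or elsewhere. Counts of members at that level therefore do not set them apart from other genes. Kcnj10 lay at 604, 981 and 792 CPM in wild type medulla and at 601, 648 and 574 CPM in knockin (log2 difference -0.39 ± 0.17, adjusted p = 0.85). Kcnk13 had a log2 difference of -0.42 ± 0.13 in medulla (adjusted p = 0.83). The smallest p-values there belonged to Kcnt1 (0.25 ± 0.07) and the G-protein-gated Kcnj6 (-0.54 ± 0.17), both at an adjusted p of 0.83. In pons Kcnc1 had -0.51 ± 0.12 and Kcnk9, a leak channel, -0.87 ± 0.17, both at an adjusted p of 0.41. Between ASO and vehicle the smallest p-values belonged to the leak channels Kcnk5 (0.93 ± 0.24) and Kcnk13 (0.44 ± 0.13) in medulla, and to Kcnk9 (0.67 ± 0.17) and Kcnip2 (2.51 ± 0.70) in pons, at adjusted p-values of 1.0 and 0.75. The high Kcnip2 of pons came from ASO replicate 3, the library that stood apart above. These groups had 3 libraries each, among them the libraries whose Atxn1 level goes against their labels. Without those, the counts remained 0.

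The ASO was compared with vehicle in knockin mice, which asks which members differ once Atxn1 is lowered. In medulla at 28 weeks 7 members were higher with ASO and 0 lower (8.75%), beside 1.69% of all genes tested and 1.30% called higher. They were the inward rectifiers Kcnj10 and Kcnj16, the leak channels Kcnk10 and Kcnk13, Kcnc1, Kcnn2 and the silent subunit Kcng4. This comparison shares its knockin libraries with the one against wild type, so the directions are not independent of each other.

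Kcnn2 stood at 32.7, 35.9 and 40.6 CPM (lowest, median and highest) with ASO and at 26.9, 29.5 and 32.4 CPM with vehicle, with no overlap, and was higher by 0.29 ± 0.05 on the log2 scale (adjusted p = 0.0011). All ASO libraries lay above all vehicle libraries in 2 of the 80 members and in 0.127% of all genes over the 1 CPM level. Kcnj10 stood at 494, 644 and 732 CPM with ASO, overlapping the vehicle group (346 to 510 CPM) only in its lowest library, and was higher by 0.48 ± 0.08 (adjusted p = 0.0024). That lowest library is the one labelled ASO replicate 2, which also held the most Atxn1 of its group. Kcnk13 stood at 14.4, 22.1 and 23.3 CPM with ASO and was higher by 0.51 ± 0.10 (adjusted p = 0.0071). Its lowest value came from the same library.

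Kcnc1 was higher by 0.26 ± 0.06, with 240 to 303 CPM against 209 to 257 CPM. Kcnj16 was higher by 0.32 ± 0.07, with 42.8 to 68.0 CPM against 35.1 to 51.7 CPM. Kcng4 was higher by 0.35 ± 0.08, with 62.5 to 102 CPM against 56.3 to 75.9 CPM. Kcnk10, the only one of the 7 not called between knockin and wild type, was higher by 0.34 ± 0.08, with 6.95 to 10.8 CPM against 5.63 to 8.21 CPM. All 7 were above 0 in both batches, but 0 of them were called in batch 1 alone and 2 in batch 2 alone. For Kcnj10 the difference was 0.55 in batch 1 and 0.41 in batch 2, and for Kcnn2 0.28 and 0.31.

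In the same comparison 8 of 14 astrocyte markers and 6 of 10 oligodendrocyte markers were higher and 0 lower, with summed astrocyte markers of 4409 to 7071 CPM with ASO and 4195 to 5328 CPM with vehicle. Of the microglial markers 1 of 10, Trem2, was higher. Their part in the higher members was not tested. The count of called members was 7 without ASO replicate 2, 4 without ASO replicate 5 and 4 without the libraries low in Hox genes.

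**Figure D5:**
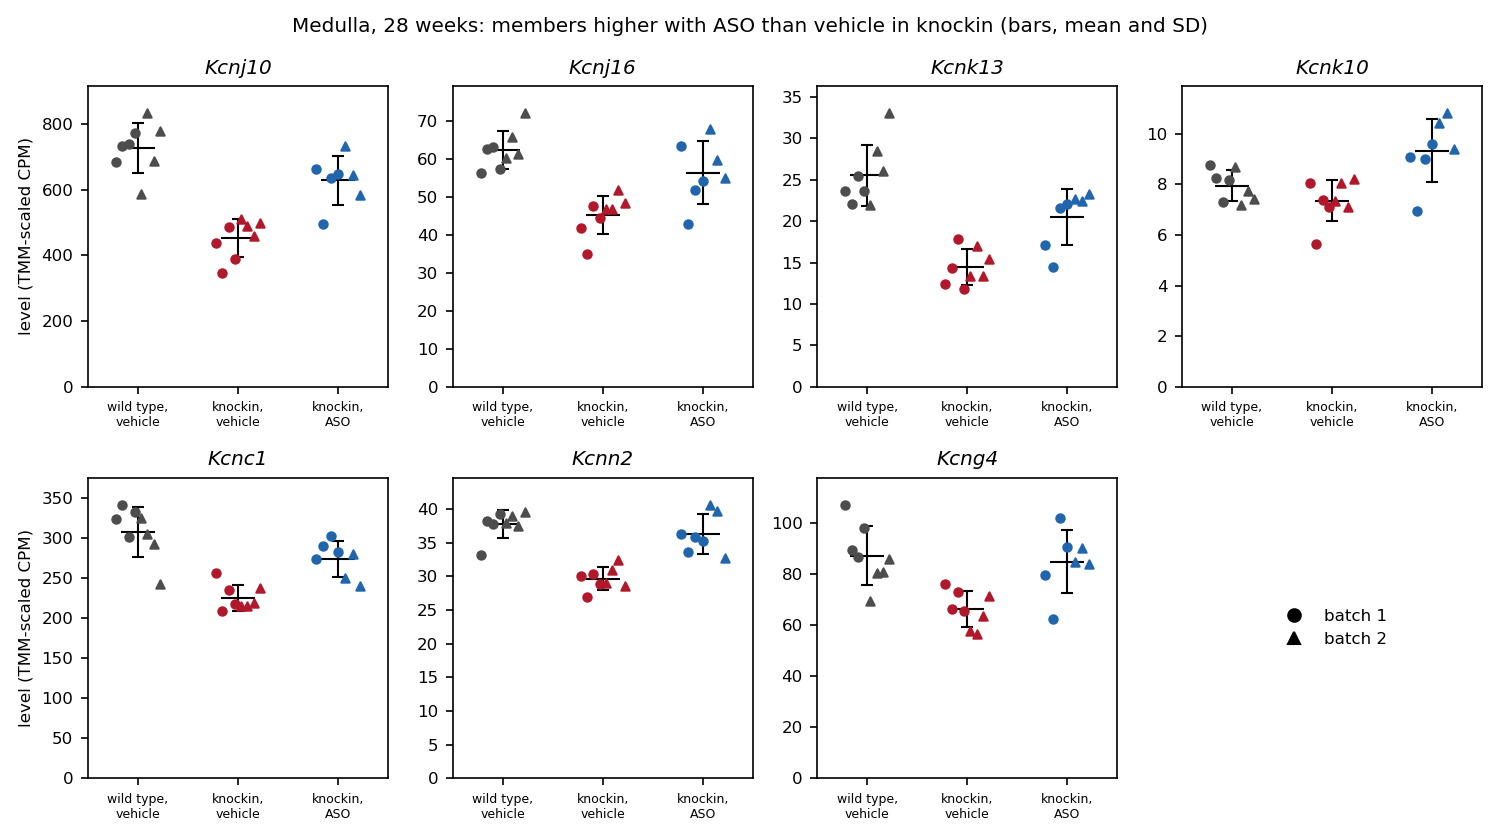
Level (CPM, y axis from 0) in medulla at 28 weeks of the 7 members higher with ASO than with vehicle in knockin mice. Points are libraries (circles batch 1, triangles batch 2) and bars the mean with SD; Kcnn2 libraries with ASO (32.7 to 40.6 CPM) all lie above those with vehicle (26.9 to 32.4 CPM), while the other members overlap.

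Against wild type, ASO-treated knockin medulla had 4 lower members (5%), beside 3.8% of all genes tested, 1.77% higher and 2.02% lower. Kcnh3 had a log2 difference of -1.38 ± 0.28 (adjusted p = 0.010), Kcnip2 of -0.96 ± 0.21 (0.016), Kcnh2 of -0.27 ± 0.06 (0.017) and Kcng1 of -1.54 ± 0.41 (0.041). Kcnip2 stood at 6.65 to 17.8 CPM in wild type, 4.02 to 8.40 CPM in vehicle-treated and 3.87 to 9.05 CPM in ASO-treated knockin. Between ASO and vehicle Kcnip2, Kcnh3 and Kcng1 had log2 differences of 0.04 ± 0.21, 0.05 ± 0.29 and 0.10 ± 0.40. Kcnj10 had -0.20 ± 0.08 against wild type (adjusted p = 0.17) and Kcnn2 -0.05 ± 0.05 (adjusted p = 0.57). The count was 2 without ASO replicate 6 and 9 without vehicle-treated knockin replicate 2.

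In cerebellum ASO against vehicle called 0 members with edgeR, beside 0.0491% of all genes. At an unadjusted p under 0.05 there were 15 members, and DESeq2 called 2. Kcnk13 had the smallest p (log2 difference 0.45 ± 0.11, adjusted p = 0.21), followed by Kcnmb4 (0.47 ± 0.12, adjusted p = 0.25). Kcna6 lay at 103, 97.4, 102 and 117 CPM with ASO, above all 4 vehicle-treated knockin libraries and below all 4 wild type libraries (log2 difference 0.24 ± 0.06 against vehicle, adjusted p = 0.26). All ASO libraries lay above all vehicle libraries in 6 of the 80 members and in 3.1% of all genes over the 1 CPM level. Kcnip4 lay at 103, 101, 124 and 150 CPM with ASO (0.36 ± 0.11, adjusted p = 0.38). Against wild type, 0 members and 0.0% of all genes were called with edgeR. At an unadjusted p under 0.05 there were 23 members, and DESeq2 called 5. Without ASO replicate 4 the count against wild type was 7, and without ASO replicate 3 the count against vehicle was 2.

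In pons at 28 weeks ASO against vehicle called 0 members with edgeR, beside 0.0929% of all genes (0.0831% higher). At an unadjusted p under 0.05 there were 13 members, and DESeq2 called 3. Kcnk13 lay at 18.1, 14.4, 15.5 and 15.3 CPM with ASO and between 8.97 and 14.4 CPM with vehicle (log2 difference 0.51 ± 0.13, adjusted p = 0.13). Kcnj10 lay at 548, 358, 405 and 400 CPM with ASO, above the vehicle range of 310 to 333 CPM (0.42 ± 0.11, adjusted p = 0.15). For both genes the lowest ASO value came from the library labelled ASO replicate 2, and without it, or without vehicle-treated knockin replicate 4, 2 members were called. All ASO libraries lay above all vehicle libraries in 4 of the 80 members and in 3.36% of all genes over the 1 CPM level. Against wild type, Kcnip4 (-0.36 ± 0.07, adjusted p = 0.026) and Kcns3 (-0.42 ± 0.09, adjusted p = 0.048) were lower, 2.5% of members beside 1.07% of all genes (0.591% lower). The count was 9 without ASO replicate 1, 5 without vehicle-treated knockin replicate 4, and 0 without ASO replicate 2 or 3 or any 1 of the wild type libraries. The test of a difference between pons and medulla in the ASO effect called 0 members with edgeR (3 at an unadjusted p under 0.05, 0 with DESeq2), and 0.0% of all genes. The smallest p-values there were those of Kcnd2 (-0.20 ± 0.07) and Kcnip4 (-0.23 ± 0.10).

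Among 25 genes for proteins that bind or accompany potassium channels, 23 were tested in cerebellum, where only Abcc8, the sulphonylurea receptor that pairs with Kcnj11, was lower in knockin. There 2.06% of all genes tested were called lower. In medulla at 28 weeks 6 of 24 were lower: the scaffold genes Dlg1 and Dlg4, Amigo1, Lgi1, the pacemaker channel Hcn2 and its trafficking partner Pex5l (log2 difference -0.51, adjusted p = 0.0003). Of all genes tested there, 9.99% were called lower. In pons 5 of 24 were lower, beside 5.65% of all genes tested: Dlg1, Dlg2, Hcn4, Lrrc52 and Pex5l. With ASO, Hcn2 (log2 difference 0.20) and Pex5l (0.36) were higher in medulla, both near the threshold (edgeR, adjusted p = 0.045). Of all genes tested, 1.30% were called higher there. Calls of these partner genes were not followed through the alternative settings. Dpp6 and Dpp10, which together with Kcnip proteins form the Kcnd complex, had log2 differences of -0.12 and -0.07 in knockin medulla and were not called.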

How the data were processed

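RNA-seq libraries of cerebellum, medulla and pons were made with a stranded kit (TruSeq), per the labels' protocols. The deposited values are raw read counts per gene, made with CASAVA 1.8, HISAT2 2.0.2 and featureCounts on GRCm38, per the submitters' processing notes. How strand and read pairs were handled there is not stated. Between 70.0% and 78.6% of the counts from 1 to 20 were even. If paired reads were counted singly, the counts look more precise than they are. The fits estimate the spread between libraries, and the effect of such counting on their p-values was not tested. Unnamed gene identifiers (259) held 0.035% of counts and stayed in the fits. Total counts ran from 49.2 to 119.1 M per library (median 77.0 M).

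Members were all Kcn genes with at least 1 CPM in 3 or more libraries. 1 member is counted in the totals but not reported here. Members and lists were chosen with earlier results of these data known. Each tissue and age was fitted over its 3 groups with edgeR 4.0.16 (R 4.3.3, TMM scaling, filterByExpr at 10 counts, robust quasi-likelihood test), with the labelled batch as a term in medulla at 28 weeks. Benjamini-Hochberg adjustment ran over all genes tested, and "called" means an adjusted p under 0.05. The SE is the size of the log2 difference divided by the root of its F. Differences between effects were interaction terms of joint fits. Named genes were the called members, at most 25 by smallest p, or the 2 of smallest p where none was called; between regions the 10 of largest fold in each direction; the 10 highest per kilobase; and 12 members of known role. Kcnd1, Kcnd3, and Kcnc2, Kcng1, Kcnh3, Kcnip2 and Kcnk13 where not called, were added after their values were seen. The fits were tested on simulated data. Per-kilobase levels use union exon lengths of GENCODE vM21.

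Alternatives were DESeq2 1.42.0, RLE scaling, no filter, only the 2 groups compared, a replicate block, no batch term, each batch alone and leaving out each library. Fits without libraries low in Hox genes and without those whose Atxn1 goes against the label were also run. Chosen after seeing the data were a count without Kcnj13 and Kcne2 and blocks on a number that ends the column names and is shared between tissues, whose meaning is not given. Of 131 pairs of libraries within groups, 0 held identical values, and the lowest chi-square per degree of freedom was 5.81. Same-numbered libraries did not pair by the data.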

Additional observations from a re-analysis of the deposited data

Results flagged for a closer look

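In 21 members and 9 groups of 4 to 8 libraries, 17 of 189 sets had a highest or lowest library that stood further from the rest than Dixon's 95% limit allows. Chance alone flags about 1 in 20. In cerebellum, ASO replicate 3 was low in Kcna1 (9.59 CPM, next 82.8) and Kcnj10 (212 CPM, next 285), ASO replicate 2 was high in Kcnip2 (7.29 CPM, next 2.80), and wild type libraries stood apart in Kcna6 (119 CPM, next 129) and Kcnb2 (10.2 CPM, next 6.20). Knockin replicate 2 of medulla at 28 weeks stood apart in 5 members: it was high in Kcne2 (114 CPM, next 19.4), Kcnj13 (98.0 CPM, next 16.6) and Kcnh3 (0.938 CPM, next 0.483), and low in Kcnma1 (11.3 CPM, next 25.5) and Kcnb2 (10.2 CPM, next 17.6). The same library held the most of the choroid plexus gene Ttr. Also in medulla, ASO replicate 1 was high in Kcnb2 (25.7 CPM, next 19.8) and wild type replicate 1 was low in Kcnn2 (33.1 CPM, next 37.5). In pons at 28 weeks, ASO replicate 1 was high in Kcng4 (67.7 CPM, next 42.8), ASO replicate 2 low in Kcng1 (3.07 CPM, next 3.98), and ASO replicate 4 high in Kcnip2 (19.2 CPM, next 7.20). Knockin replicate 4 was low in Kcnip2 (6.04 CPM, next 15.7) and wild type replicate 2 high in Kcne2 (7.71 CPM, next 0.455).

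The knockin effect differed between cerebellum at 18 weeks and medulla at 28 weeks in 8 reported members by the interaction test of edgeR. Of all 9 calls of this test, 7 were lost in some setting. Without cerebellar knockin replicate 4, 3 members were called. Region and age differ together in this test and cannot be told apart. On the log2 scale, cerebellum minus medulla, the differences were 0.64 for Kcnk2, 1.41 for Kcnb2, 0.72 for Kcnu1, 0.95 for Kcnmb2, 1.46 for Kcnc2, 0.35 for Kcnn1, 1.83 for Kcnip2 and 2.48 for Kcnv1.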

How the results depend on the processing

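No called difference of a named member reversed in any setting, and 4 of 10 named calls in cerebellum, 10 of 25 in medulla and 10 of 18 in pons between knockin and wild type held in every one. For ASO against vehicle in medulla 0 of 7 did. There the differences of Kcnip2 (0.18 and -0.15), Kcnh3 (-0.32 and 0.53) and Kcng1 (0.26 and -0.15), none of them called, changed sign between batches 1 and 2. The cause of the moves below was not tested. The share of all genes called in each of these settings is not given. The counts therefore show how calls move, not a trait of the members. DESeq2 called 18 members for knockin against wild type in cerebellum and 1 in pons at 18 weeks, 2 and 5 for ASO against vehicle and wild type in cerebellum, 7 for ASO against wild type in medulla at 28 weeks, and 3 and 9 for ASO against vehicle and wild type in pons at 28 weeks. With only the 2 groups compared, cerebellum knockin against wild type gave 31 and pons ASO against wild type 4; RLE scaling gave 1 for the latter. In medulla, ASO against wild type gave 2 with no batch term, 0 in each single batch and 2 once the libraries with low Hox levels were left out. ASO against vehicle gave 0 in batch 1, 3 in batch 2 and 4 without those libraries, and knockin against wild type 12 in batch 1. Replicate numbers did not pair the libraries (correlations of same-numbered libraries from -0.53 to 0.50, and at most 3 libraries of a tissue and age closest to their own number). With the replicate block, cerebellum knockin against wild type gave 5, pons ASO against wild type 0, and the difference between cerebellum and medulla 5; other counts stayed within 1.5 times. Between regions at 18 weeks the replicate number does not follow the number that ends the cerebellar columns. Leaving out single libraries gave, for knockin against wild type, 4 to 27 in cerebellum, 25 to 31 in medulla and 10 to 27 in pons at 28 weeks; for ASO against vehicle 0 to 2, 4 to 9 and 0 to 2; for ASO against wild type 0 to 7, 2 to 9 and 0 to 9; for pons against medulla 18 to 38; for cerebellum minus medulla 3 to 10; and for medulla and pons at 18 weeks 0. Members near 1 CPM, such as Kcnh3 and Kcnmb1, rest on fewer counts than the others named.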
